A study of Mus musculus with 15 samples.

Results

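The genes described here are 10 members of the insulin receptor and mTOR pathway: Insr, Irs1, Irs2, Akt1, Akt2, Tsc1, Tsc2, Mtor, Rptor and Rictor. They were taken by gene name from the annotation in the scanner files, not by any measured value, and every probe carrying one of the names was kept. This gave 17 probes of the 55681 distinct probes on the array, and 10 of its 34816 gene names. Their transcripts were read on 15 one-colour arrays from sorted CD4 T cells of the small intestinal lamina propria, the layer under the gut epithelium, in male mice. The groups were control mice on normal chow, mice at day 10 of a high-fat diet and mice at day 30 of that diet, with 5 arrays each. The labels name no strain, genotype or age, and they give no day for the controls, so time on the diet cannot be told apart from age. The comparisons ask how the pathway's transcripts differed early and later in a diet that the series title links to prediabetes and diabetes.

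Insulin binds the insulin receptor, a tyrosine kinase that phosphorylates the adaptors Irs1 and Irs2, and these recruit PI3 kinase, whose lipid product brings the Akt kinases to the membrane. Akt phosphorylates Tsc2 and so relieves the brake that the Tsc1 and Tsc2 complex puts on the GTPase Rheb, which switches on the kinase Mtor in complex 1, built around Rptor. A second complex, built around Rictor, phosphorylates Akt in turn. In T cells the pathway couples growth factor, antigen receptor and nutrient signals to growth and effector differentiation, and much of its control lies in phosphorylation, which arrays of transcripts do not measure.

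All values are log2 of the processed signal minus the array's 75th percentile, called the relative signal below, so a difference of 1 is a doubling and levels of different probes are not comparable. A spot counted as detected where the scanner software called it well above background. Relative signals near -6 came from spots not well above background and have no order among themselves. The share of spots that were detected lay between 50.9% and 82.0% in control, between 55.3% and 61.9% at day 10 and between 45.2% and 59.5% at day 30. Of all arrays, control replicate 1 had the most detected spots. One slide held the 5 controls and day 10 replicates 1 to 3, and another held day 10 replicates 4 and 5 and the 5 arrays of day 30. The labelled cell type was checked against 6 T cell genes (Cd3e, Cd3g, Cd4, Cd2, Lck and Thy1), and 6 of 6 were detected on all 15 arrays. The samples are bulk RNA, in which fewer cells of a type and less RNA per cell cannot be told apart. Whether each sample of a group was a different mouse is not stated in the labels, so the p-values reflect the scatter among samples alone, and that scatter could be technical.

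The comparisons below turn on single 60-base probes. The opening 30 bases of 6 of them are printed, 5′ to 3′ as the files give them, to show which part of each gene was read, with positions of the whole probe in build mm9. Insr had 3 separate probes on chromosome 8, minus strand, at chr8:3151667-3151726, chr8:3154024-3154083 and chr8:3155472-3155531. Rptor had a single probe on the plus strand at chr11:119760596-119760655. A pair of Akt2 probes on the plus strand, at chr7:28424405-28424464 and chr7:28424412-28424471, shared 53 of their 60 bases. Capitals mark the 23 shared bases that fall within both printed stretches, and the Insr and Rptor probes share no such stretch and are in lower case. Whether a probe lies in coding or untranslated sequence is not annotated in the files.
Insr A_52_P494514: cagattctagctaatgaattcttgacaaca
Insr A_55_P2172566: acacagatggactttgagaacactaagcaa
Insr A_55_P2173927: tttctgtttgtcttttgacctgaaaacaca
Rptor A_52_P229320: gacctagagcgcatttctctatttatttta
Akt2 A_55_P2066518: ctgctggCCTTTCCTTACTCCTCGTATTTG
Akt2 A_55_P2025228: CCTTTCCTTACTCCTCGTATTTGtacggta

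None of the 10 genes passed the test in any comparison. Rptor, the scaffold of mTOR complex 1, had the smallest unadjusted p of the genes tested here in both comparisons with control, with mean relative signals of -3.75 in control, -0.76 at day 10 and -0.17 at day 30. Of the 10 genes, 9 were tested through their brightest probe, and Irs1, an adaptor, was too dim on both of its probes. By limma with Benjamini-Hochberg adjustment over 25998 genes, 0 of the 9 passed an adjusted p of 0.05 at day 10 against control, at day 30 against control or at day 30 against day 10, where 0% of all genes tested passed in each. At an unadjusted p under 0.05, 1 of 9 was found at day 10 against control (Rptor), against 2.59% of all genes. The count was also 1 of 9 at day 30 against control (Rptor), against 5.14% of all genes, and 1 of 9 at day 30 against day 10 (Insr), against 4.1% of all genes. The Insr probe used was the brightest of the gene at day 30, but not in control or at day 10. The 9 differences had a median of 0.13 at day 10 against control (5 above 0, 4 below), with a median of 0.00 over all genes. Their median was 0.38 at day 30 against control (5 above, 4 below), with 0.00 over all genes, and -0.12 at day 30 against day 10 (3 above, 6 below), with 0.06 over all genes. Over all tested probes of the 10 genes, 0 of 14 passed an adjusted p of 0.05 in any comparison, where 0%, 0% and 0.0026% of 38438 probes did. At an unadjusted p under 0.05 there were 1 of 14 probes at day 10 against control (2.78% of all probes), 2 of 14 at day 30 against control (5.03%) and 1 of 14 at day 30 against day 10 (4.3%). At day 30 against day 10, no gene of the 9 and no probe of the 14 had groups that did not overlap (0 and 0), where 0.573% of genes and 0.578% of probes did. The share of all genes with a difference above 0 was 49.9%, 50.3% and 53.1% in the same order. The comparisons with control share the same 5 control arrays, and the diet arrays are shared with the comparison of day 30 with day 10, so the 3 are not independent.

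**Figure D1:**
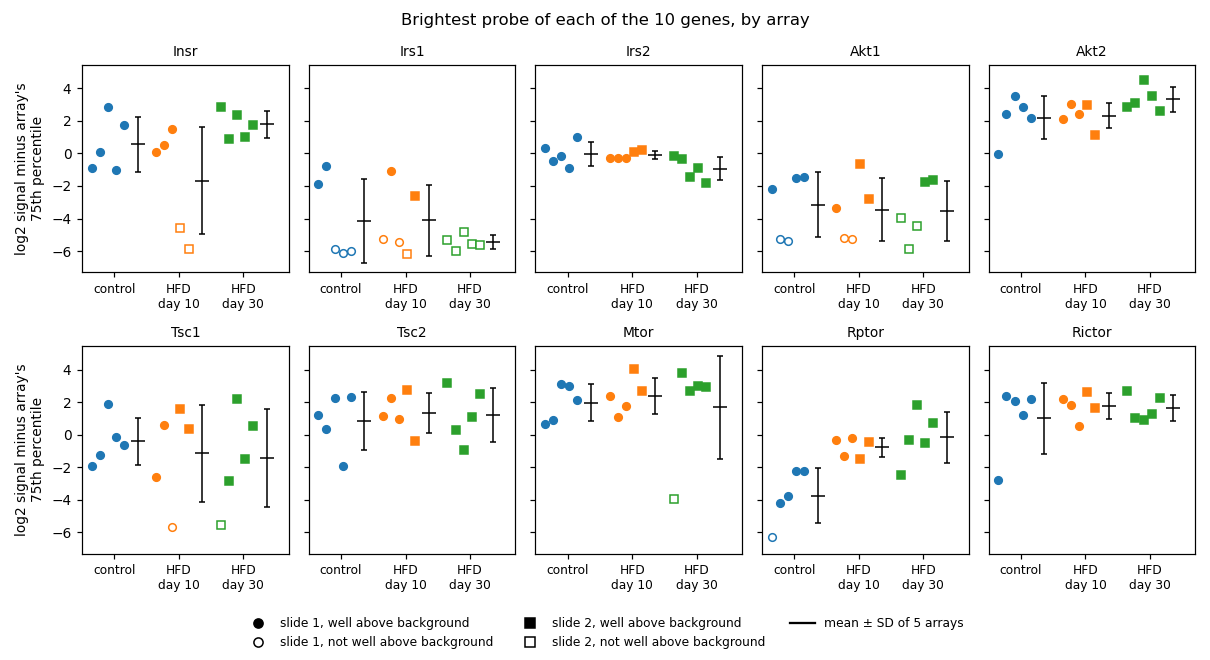
Relative signal (log2, arrays scaled to their 75th percentile) of the brightest probe of each gene on every array, by group: control, day 10 and day 30 of the high-fat diet. Each point is an array (circles slide 1, squares slide 2), open points are spots not well above background, and the black bar is the mean ± SD of 5 arrays. In Rptor every day 10 point lies above every control point, and in Insr the 2 lowest points are day 10 arrays below background.

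The 3 probes for Insr, the insulin receptor, gave 3 different pictures. The brightest over all arrays was A_52_P494514, with a mean of 0.23 against 0.03 for A_55_P2172566. It was so only through day 30 (1.78 against -1.48), and was the dimmer in control (0.56 against 1.67) and at day 10 (-1.66 against -0.10). Its test at day 30 against day 10 thus used a probe chosen partly by its day 30 values. A_52_P494514 read -0.88, 0.11, 2.84, -1.02 and 1.73 in control, 0.10, 0.54, 1.48, -4.56 and -5.88 at day 10, and 2.88, 0.91, 2.36, 1.03 and 1.75 at day 30, in replicate order. The low pair at day 10 (replicates 4 and 5) was below background and lay on the slide that also held day 30. All other arrays were detected, and 3 of the 5 day 10 arrays sat within the range of the controls. The difference was 3.45 at day 30 against day 10 (SE 1.26, unadjusted p = 0.0144, adjusted p = 0.999 by limma), with the groups overlapping. All 5 day 30 arrays lay above the day 10 mean of -1.66, but so did the 3 detected day 10 arrays and all 5 controls. The difference was -2.22 at day 10 against control (SE 1.26, adjusted p = 1.00) and 1.23 at day 30 against control (SE 1.26, adjusted p = 0.963).

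The low Insr values were those of the 2 day 10 arrays on the slide that held day 30, where they averaged -5.22, against 1.78 for the 5 day 30 arrays of that slide. With slide as a block, the difference between day 30 and day 10 was 7.0 (adjusted p = 0.0645 by limma), and within the slide that held both it was 7.0 (adjusted p = 0.239). The same block gave 7.16 at day 30 against control (adjusted p = 0.405 by limma), in place of 1.23. The other Insr probes had the opposite sign with this block. A_55_P2172566 gave -4.42 at day 30 against control and -2.14 at day 30 against day 10. A_55_P2173927 gave -2.02 and -1.48 in the same order, and neither probe passed. Over all alternatives the difference between day 30 and day 10 ran between 0.27 and 7.0, and its adjusted p between 0.0645 and 1.00. It was 1.76 with normexp background correction and quantile normalisation. In the deposited value table, which held 3 of the 5 day 10 values of this probe, it was 0.27. The 7.0 turned on 2 values below background, which have no order. Within the other slide, the 3 day 10 arrays averaged 0.71 ± 0.71 (SD, n = 3) and the 5 controls 0.56 ± 1.68 (SD, n = 5), a difference of 0.15. Without day 10 replicate 5 the difference at day 10 against control was -1.17 in place of -2.22. The slide of day 30 held 2 day 10 arrays and no control. Every value against control at day 30 with slide as a block is therefore bridged through the day 10 arrays, 2 on this slide and 3 on the other.

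The second Insr probe, A_55_P2172566, pointed the other way at day 30. It read 0.62, 1.35, 1.14, 2.07 and 3.17 in control, -0.72, 1.67, -2.78, 1.09 and 0.23 at day 10, and -4.35, 0.37, -3.82, 0.42 and -0.04 at day 30. Replicates 1 and 3 of day 30 were below background, and every day 30 array lay below every control array, so the groups did not overlap. In the fit over 38438 probes, 0.601% of probes had groups that did not overlap in this comparison. The difference was -3.15 at day 30 against control (SE 1.05, unadjusted p = 0.00833, adjusted p = 0.945 by limma) and -1.77 at day 10 against control (SE 1.05, adjusted p = 1.00). In the same comparison of day 30 with control, the brightest probe gave 1.23, with a 95% interval between -1.44 and 3.89.

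The remaining Insr probe, A_55_P2173927, was detected on 8 of 15 arrays, 3 of them control, 3 day 10 and 2 day 30. Its differences were 0.16 at day 10 against control (SE 1.42) and -0.28 at day 30 against control (SE 1.42), neither of which passed. Averaged over the Insr probes that passed the filter, the difference at day 30 against control was -0.74, the opposite sign to the brightest probe. After each probe was centred on its own mean, the root mean square gap over the 15 arrays was 3.66 between the bright pair of Insr probes, and 3.85 and 2.40 for the other pairs. The 3 probes lie 2357, 3805 and 1448 bases apart from each other on the chromosome, counted between their starts in the order of those pairs.

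**Figure D2:**
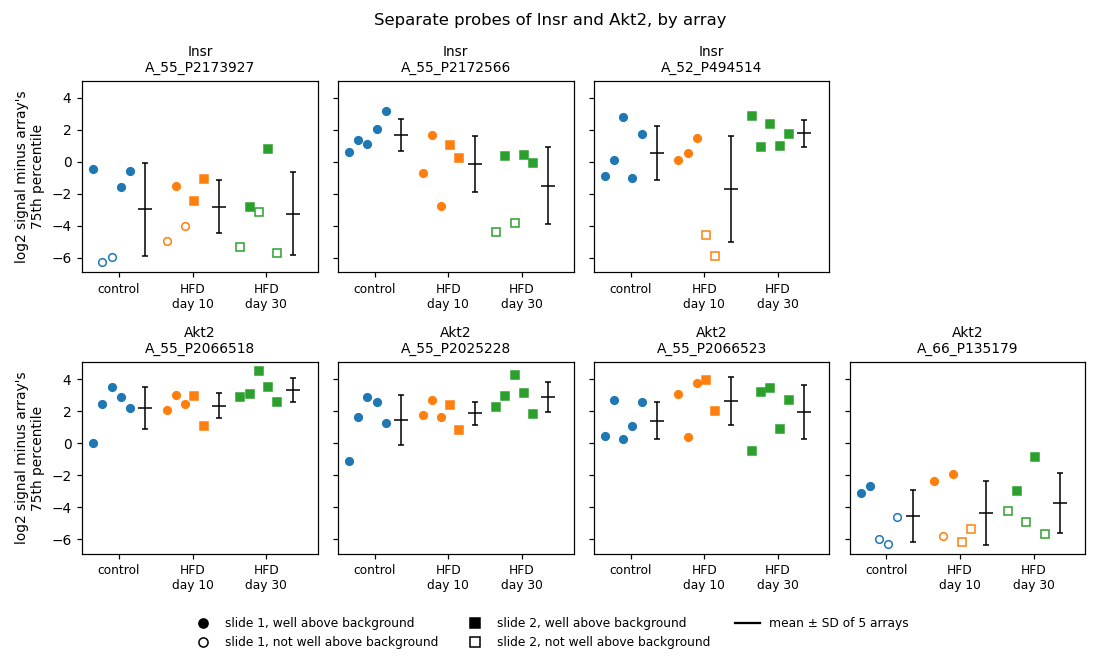
Relative signal (log2) of every tested probe of Insr and Akt2 on each of the 15 arrays, grouped as control, day 10 and day 30. Circles are slide 1, squares slide 2, open points are spots not well above background, and black bars are the mean ± SD of 5 arrays. The overlapping Akt2 probes A_55_P2066518 and A_55_P2025228 follow each other from array to array, and the 3 Insr probes do not.

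Of the adaptors, Irs1 was mostly below background and Irs2 was steady between arrays. Irs1 was detected on 4 of 15 arrays by A_52_P175242 (2 control, 2 day 10, 0 day 30) and on 1 of 15 by A_52_P171212 (a day 30 array), so no difference was tested. Irs2, by contrast, was detected on all 15 arrays. Its relative signals were 0.33, -0.45, -0.14, -0.88 and 1.01 in control, -0.27, -0.31, -0.30, 0.08 and 0.23 at day 10, and -0.17, -0.34, -1.44, -0.91 and -1.81 at day 30. All 5 day 30 arrays lay below the control mean, with the groups overlapping. The spread of Irs2 within groups was 0.60 on the log2 scale, the smallest of the tested genes of the 10, where the median over all genes tested was 1.38. Its difference was -0.91 at day 30 against control (SE 0.50, 95% interval between -1.96 and 0.14, adjusted p = 0.927 by limma) and -0.82 at day 30 against day 10 (SE 0.50, adjusted p = 0.999). At day 10 against control the Irs2 difference was -0.09 (SE 0.50).

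Akt2, the Akt form best known for insulin action on glucose uptake, was read by 4 tested probes, and none passed the test. All 4 had a higher mean at day 30 than in control, but 2 of them overlap, and A_66_P135179 was detected on only 2 arrays of each group. Its brightest probe read -0.01, 2.43, 3.52, 2.88 and 2.18 in control, 2.10, 3.03, 2.45, 2.96 and 1.11 at day 10, and 2.87, 3.1, 4.51, 3.53 and 2.58 at day 30. All 15 were detected, control replicate 1 was the lowest of them, and the groups overlapped. The difference was 1.12 at day 30 against control (SE 0.60, 95% interval between -0.15 and 2.39, adjusted p = 0.927 by limma) and 0.13 at day 10 against control (SE 0.60). With the share of detected spots as a covariate, the difference at day 30 was 0.047, and the part of that share in it was not tested further. The other Akt2 probes gave 1.45 for A_55_P2025228, 0.54 for A_55_P2066523 and 0.80 for the dim A_66_P135179 at day 30 against control. With slide as a block these were 1.86, -0.038 and 3.19, and the brightest probe gave 1.62.

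The overlapping pair of Akt2 probes printed above gave nearly the same values. Their root mean square gap over 15 arrays, each centred on its mean, was 0.27, and it lay between 1.62 and 2.21 for the pairs of Akt2 probes that share no bases. Akt1, the form found in most tissues, was detected on 8 of 15 arrays (3 control, 3 day 10 and 2 day 30). It ranged between -5.36 and -1.43 in control, between -5.26 and -0.64 at day 10 and between -5.87 and -1.62 at day 30. Its differences were -0.30 at day 10 and -0.38 at day 30 against control (SE 1.16 each), smaller than the spread between arrays. With slide as a block they were -1.45 and -3.27 (adjusted p = 1.00 by limma for both). Its probe was spotted 2 times on each array, and the spots differed by a median of 0.29 and at most 1.68.

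**Figure D3:**
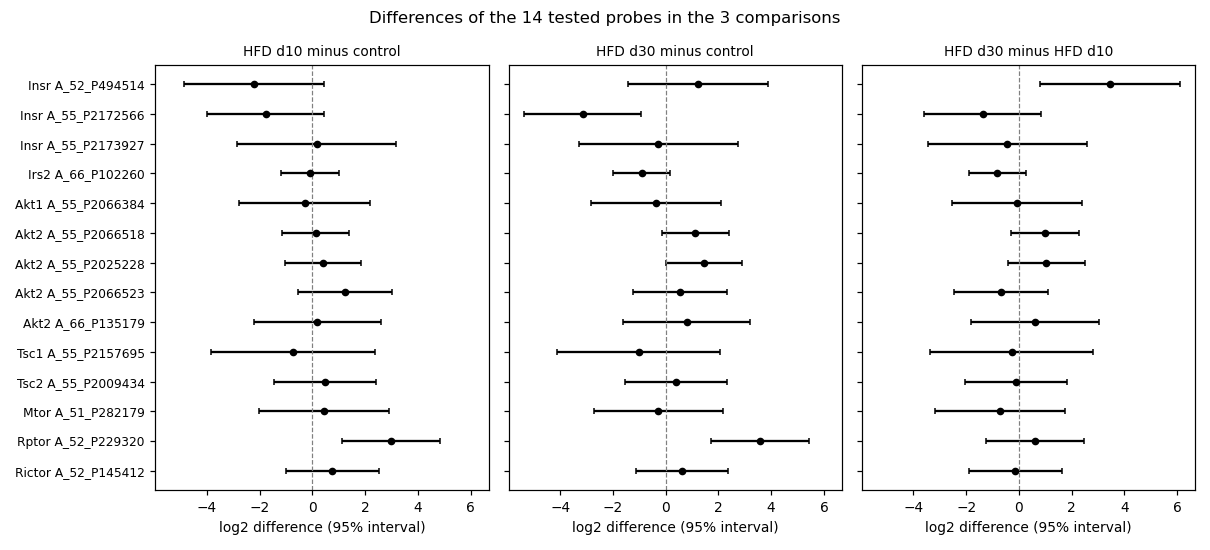
Difference in mean relative signal (log2) for each of the 14 tested probes of the 10 genes, for day 10 minus control, day 30 minus control and day 30 minus day 10. Points are differences and lines are 95% intervals from the limma fit over all probes. The lines of Rptor against control lie above 0, and Insr probes A_52_P494514 and A_55_P2172566 lie on opposite sides of 0 at day 30 against control.

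The Tsc1 and Tsc2 genes, whose products form the brake on mTOR complex 1, gave no difference that passed the test. Tsc2, detected on all 15 arrays, averaged 0.85 ± 1.76 in control, 1.34 ± 1.22 at day 10 and 1.23 ± 1.65 at day 30 (SD, n = 5 each). Tsc1 averaged -0.41 ± 1.44 in control, -1.15 ± 2.97 at day 10 and -1.43 ± 2.99 at day 30 (SD, n = 5 each). A single Tsc1 array was below background at each diet time, day 10 replicate 3 at -5.66 and day 30 replicate 1 at -5.54. Without day 10 replicate 3, the Tsc1 difference at day 10 against control was 0.39 in place of -0.74. Without day 30 replicate 1, that at day 30 against control was 0.0088 in place of -1.02. With slide as a block the Tsc1 differences against control were -2.14 at day 10 and -4.53 at day 30 (adjusted p = 1.00 by limma for both).

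Mtor, the kinase of both complexes, read 0.66, 0.90, 3.1, 2.98 and 2.16 in control, 2.41, 1.09, 1.74, 4.05 and 2.69 at day 10, and -3.98, 3.77, 2.66, 2.97 and 2.96 at day 30. Day 30 replicate 1 was below background and stood apart, and the other day 30 arrays sat in the upper part of the control range or above it. The difference was 0.44 at day 10 (SE 1.16) and -0.28 at day 30 (SE 1.16) against control. Without day 30 replicate 1, the difference at day 30 was 1.13, so that array set its sign. With slide as a block it was -0.21 at day 10 and -1.91 at day 30 against control. The second Mtor probe, A_52_P67643, was detected on 1 array of each group and was not tested.

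Rptor, which binds substrates for mTOR complex 1, was the gene of the 9 whose groups did not overlap in a comparison with control. Its probe read -6.29, -4.19, -3.78, -2.24 and -2.23 in control, -0.35, -1.31, -0.22, -1.49 and -0.44 at day 10, and -2.46, -0.34, 1.82, -0.54 and 0.69 at day 30. Control replicate 1 was below background, and the other 14 arrays were detected. At day 10 all 5 arrays lay above all 5 controls, as 1 of 9 genes, where the groups did not overlap for 0.419% of all genes tested (0.442% of probes). At day 30 replicate 1 reached into the control range and the other arrays lay above it.

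The Rptor difference was 2.98 at day 10 against control (SE 0.86, 95% interval between 1.15 and 4.81, unadjusted p = 0.00328, adjusted p = 1.00 by limma). At day 30 against control it was 3.58 (SE 0.86, 95% interval between 1.75 and 5.41, unadjusted p = 0.000769, adjusted p = 0.769). Day 30 and day 10 differed by 0.59 (SE 0.86, 95% interval between -1.24 and 2.43, adjusted p = 0.999). With slide as a block the Rptor differences against control were 3.12 at day 10 and 3.92 at day 30. With dim values raised to the lowest detected signal they were 2.56 and 3.15. They shrank to 1.22 at day 10 and 1.71 at day 30 with normexp background correction and quantile normalisation. They were 1.23 and 1.09 in the authors' deposited value table, which held 9 of the 15 Rptor values (4 control, 3 day 10 and 2 day 30). In the alternatives run, the adjusted p of Rptor lay between 0.994 and 1.00 at day 10 and between 0.496 and 1.00 at day 30 against control.

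Rictor, which defines mTOR complex 2, was detected on all 15 arrays. It read -2.80, 2.35, 2.07, 1.22 and 2.19 in control, 2.23, 1.83, 0.51, 2.60 and 1.67 at day 10, and 2.67, 1.01, 0.93, 1.27 and 2.26 at day 30. Control replicate 1, the array with the most detected spots, stood apart at the low end, and the other arrays of all groups covered 1 common range. The difference was 0.76 at day 10 and 0.62 at day 30 against control (SE 0.83 each). Without control replicate 1 these were -0.19 and -0.33, and with slide as a block the difference at day 30 was 0.010. Rptor without that array still differed by 2.35 at day 10 and 2.94 at day 30 against control. Control replicate 1 held the lowest value of 3 of the 9 tested genes, and day 30 replicates 1 and 3 each held the highest value of 3.

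Other genes of the pathway also gave no call. Of 68 further genes listed by role, 63 were tested, and Igf1r, Tbc1d7, Akt1s1, Rragb and Prkaa2 were too dim. Differences above and below 0 numbered 35 and 28 at day 10 against control, 35 and 28 at day 30 against control, and 36 and 27 at day 30 against day 10, with medians of 0.17, 0.17 and 0.13. By limma, 0 of 63 passed in each comparison, and 2, 2 and 1 had an unadjusted p under 0.05, read against 2.59%, 5.14% and 4.1% of all genes. By role, the differences of the mTOR complex subunits and inhibitors (Mlst8, Deptor, Mapkap1, Prr5 and Prr5l tested) were above 0 for 5 of 5 at day 30 against day 10, with a median of 1.09, as were 3 of 3 tested genes of the list of TSC and Rheb regulators, with a median of 0.24. None passed the test, and 53.1% of all genes lay above 0 in this comparison. The core members of the same complexes lay on both sides of 0 there, with -0.72 for Mtor, -0.14 for Rictor, -0.28 for Tsc1, -0.12 for Tsc2 and 0.59 for Rptor. No other role list, in any comparison, had all its tested genes on 1 side of 0. At day 10 against control the mTOR complex list had 2 above and 3 below 0, and the TSC and Rheb list 1 and 2. At day 30 against control these lists had 4 and 1, and 1 and 2. The 18 tested genes of amino acid sensing had 13 above and 5 below 0 at day 10 against control, and 9 and 9 at day 30 against control.

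At day 10 against control the smallest p-values were those of Ddit4, which activates the Tsc brake under stress, and Myc, a growth regulator. Ddit4 averaged -4.85 ± 2.15 at day 10 and -1.11 ± 2.49 in control (SD, n = 5 each), a difference of -3.74 (unadjusted p = 0.0245, adjusted p = 1.00 by limma). It was detected on 1 of 5 day 10 arrays and 4 of 5 control arrays. Myc averaged -2.74 ± 2.24 at day 10 and 0.07 ± 2.59 in control, a difference of -2.81 (unadjusted p = 0.0437, adjusted p = 1.00). Myc was detected on 3 of 5 day 10 arrays and 5 of 5 control arrays.

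Those at day 30 against control were Slc3a2 and Pik3r2. Slc3a2, the heavy chain of an amino acid transporter, averaged 6.57 ± 0.44 at day 30 and 5.51 ± 0.83 in control (SD, n = 5 each), and the groups did not overlap, as for 0.608% of all genes. The lowest day 30 array was at 6.12 and the highest control at 6.12 too, so the gap between them was below the rounding. The Slc3a2 difference was 1.06 (unadjusted p = 0.0115, adjusted p = 0.927 by limma). Pik3r2, a regulatory subunit of PI3 kinase, differed by -1.86 (unadjusted p = 0.0493, adjusted p = 0.927) and was detected on 0 day 30 arrays and 4 control arrays. Its group means were -4.66 at day 30 and -2.80 in control. The day 30 values were all below background and have no order, so the size of the difference is not known. Pik3r2 was detected on 5 arrays in all, the fewest that the filter allowed. In the fit over all probes its unadjusted p was 0.0524 (limma).

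Between day 30 and day 10, Sesn1, a sestrin of the family that restrains mTOR complex 1, averaged -0.30 ± 1.03 at day 30 and -3.05 ± 2.39 at day 10 (SD, n = 5 each). Its difference was 2.74 (unadjusted p = 0.0345, adjusted p = 0.999 by limma), with 5 of 5 day 30 arrays and 3 of 5 day 10 arrays detected. Ddit4 came next, with 3.1 (unadjusted p = 0.0564, adjusted p = 0.999), detected on 3 of 5 day 30 arrays and 1 of 5 day 10 arrays.

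**Figure D4:**
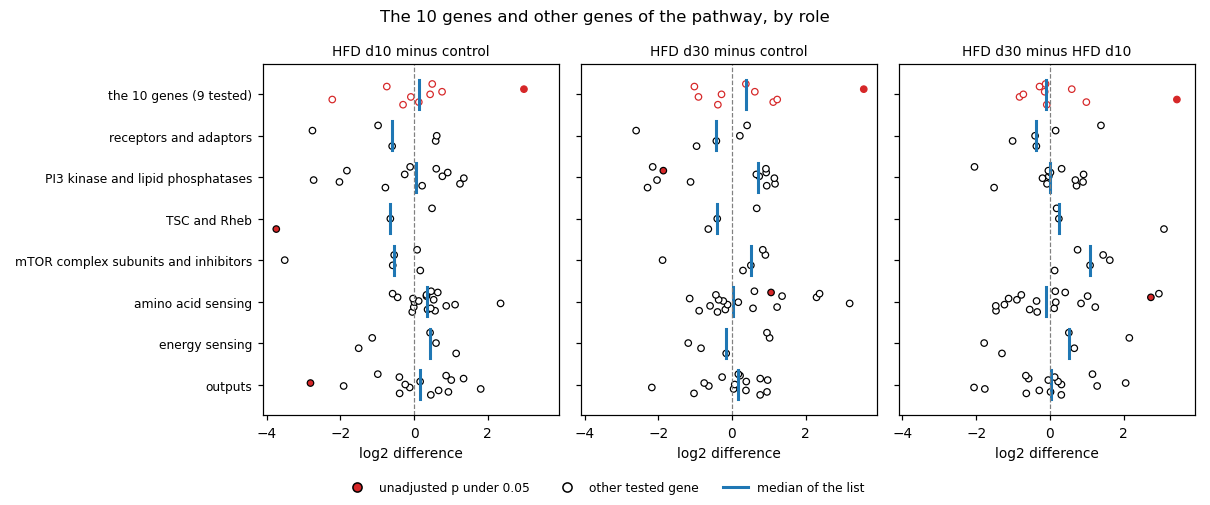
Difference in mean relative signal (log2) of the 10 genes and of the further pathway genes, by role, for day 10 minus control, day 30 minus control and day 30 minus day 10. Each point is a tested gene (red outline for the 10 genes), red fill marks an unadjusted p under 0.05, and the blue bar is the median of the list. No gene passed the adjusted threshold. At day 30 minus day 10 the 5 further mTOR complex genes and the 3 of the TSC and Rheb list lie above 0. Of the 10 genes, Insr, Akt2 and Rptor also lie above 0 there, and Irs2, Akt1, Tsc1, Tsc2, Mtor and Rictor lie below it.

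The genes most like Insr and Mtor across the 15 arrays were found by the root mean square difference between values centred on each gene's mean, among 5917 named genes detected on all arrays. Each gene was read by its brightest probe. For Insr (A_52_P494514) these were Antkmt at 1.17, Uxs1 at 1.21 and Tdg at 1.40, where the median candidate was at 2.49. The other Insr probes lay farther from it than that median, at 3.66 and 3.85, so the list describes this probe alone. For Mtor (A_51_P282179) the nearest genes were Rnf181 at 0.88, Psip1 at 0.91 and Eif3m at 0.92, with a median of 2.08. The dim second Mtor probe lay at 3.03. Likeness was not recomputed without the 1 low Mtor array and the 2 low Insr arrays.

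Markers of other cell types were present beside the T cell genes. Summed over a list on the linear scale and then put on the relative log2 scale, 6 epithelial genes lay between 7.82 and 8.32 in control, between 7.78 and 8.43 at day 10 and between 7.93 and 9.14 at day 30. The 6 macrophage and dendritic cell genes lay between 2.82 and 4.38, between 3.32 and 4.63 and between 3.99 and 5.41 in the same groups, and the 6 T cell genes between 4.84 and 7.16, between 5.61 and 6.65 and between 6.11 and 6.99. Of the 6 B cell and plasma cell genes, summed between 5.14 and 5.63, between 4.97 and 5.93 and between 5.15 and 6.11, Ms4a1 was below background on all 15 arrays. The 6 CD8 T, NK and cytotoxic cell genes lay between 4.55 and 6.58, between 5.01 and 6.05 and between 4.64 and 6.07, and the 4 genes of stroma and endothelium between 1.45 and 3.83, between 0.0023 and 3.09 and between -0.0013 and 3.94. The ranges of these sums overlapped between the groups. Gene by gene, no marker passed the test (limma), and medians of the differences are given for those tested. Of the T cell genes, 6 of 6 were above 0 at day 30 against control (median 0.27, 1 with an unadjusted p under 0.05), as were 4 of 4 B cell and plasma cell genes (median 1.27) and 3 of 5 macrophage and dendritic cell genes (median 0.52, the smallest unadjusted p being 0.00114, adjusted p = 0.878). In that comparison 3 of 3 genes of stroma and endothelium were below 0 (median -1.24, 1 with an unadjusted p under 0.05), as were 4 of 6 epithelial genes (median -0.41) and 3 of 5 cytotoxic cell genes (median -0.21). The 5 tested cytotoxic cell genes were all below 0 at day 30 against day 10 (median -1.04), and at day 10 against control 5 of 5 were above 0 (median 0.61). At day 30 against day 10, 4 of 5 macrophage and dendritic cell genes were above 0 (median 0.30, 2 with an unadjusted p under 0.05). So were 5 of 6 T cell, 3 of 4 B cell and plasma cell, 3 of 6 epithelial and 1 of 3 stroma and endothelium genes. The part of these cell types in the Rptor, Insr and Akt2 values was not tested.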

How the data were processed

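CD4 T cells sorted from the small intestinal lamina propria were lysed and their RNA amplified with SuperAmp, and 250 ng of cDNA was labelled with Cy3, per the labels' protocols. There were 15 one-colour Agilent arrays, 1 per sample and 5 per group. The deposited scanner files hold linear intensity values from Agilent Feature Extraction 10.7.3.1, protocol GE1_107_Sep09, with positions in build mm9, per the file headers. Per the file headers, the software had subtracted background and detrended each array, with no scaling across arrays. The deposited value table of the authors holds log2 values whose preparation is not given in the sources used here. No spot was saturated (0 on each array).

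From these intensities, log2 of the processed signal minus the array's 75th percentile over probes that were not controls was computed, spots of a probe were averaged, and outlier spots and 1 damaged line were left out. A gene was its brightest probe, tested where that probe was detected (well above background) on 5 or more of 15 arrays, which kept 25998 genes, while 38438 probes entered a second fit. Groups were compared with limma 3.58.1 in R 4.3.3 (lmFit, eBayes with trend, two-sided) over all 15 arrays, with Benjamini-Hochberg adjustment over all genes or all probes and a threshold of 0.05. The number of arrays limits the precision. The fit was tested on simulated data in which 200 of 25998 genes differed by 4 (log2) at day 30 against control. Of these 200, 107 passed an adjusted p of 0.05 by limma, with 5 false calls, so many differences of that size were missed.

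The 10 genes, the pathway lists and the marker lists were chosen with earlier results of these data known. All 10 genes were named with every probe. Further pathway genes were named where the unadjusted p was under 0.05 or among the 2 smallest of a comparison, and likeness was computed for Insr and Mtor. Alternatives covered the background correction, normalisation, the deposited table, slide as a block and within a slide, the replicate number as a block, filters on dim probes, raised dim values, the detected share as a covariate, the mean of probes, and leaving out each array. Whether the replicate numbers pair the samples is not stated in the labels. Correlations of same-numbered deviations lay between -0.13 and 0.15, and they were not compared with those of other pairs.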

Additional observations from a re-analysis of the deposited data

Results flagged for a closer look

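Of 51 groups of 5 arrays formed by the 17 probes and 3 groups, 4 held an array whose gap to its nearest neighbour exceeded 0.71 of the group's whole range. Chance gives this in about 1 in 20 groups. Mtor probe A_51_P282179 in day 30 replicate 1 was the lowest of its group at -3.98, with its nearest neighbour at 2.66. Rictor in control replicate 1 was the lowest at -2.80, with its nearest neighbour at 1.22. The dim second Mtor probe, A_52_P67643, was highest at -1.58 in control replicate 4 and at 1.35 in day 30 replicate 3. The other 4 arrays of each of these groups were below background for that probe, and the cause was not tested.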

How the results depend on the processing

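No alternative gave a call for any of the 10 genes, and the count of genes passing an adjusted p of 0.05 by limma stayed at 0 except in 2 cases: 1 gene (Vkorc1l1) at day 30 against control with slide as a block, and between 0 and 2 genes at day 30 against day 10 when single arrays were left out, the 2 (As3mt and Suclg2) without day 10 replicate 4. Rptor against control and Irs2 and Akt2 at day 30 kept their sign in every alternative run for them. Leaving out single arrays, the median over the 9 genes at day 30 against day 10 ran between -0.45 and 0.70, the highest without day 30 replicate 1. The cause of the turned signs below was not tested. Normexp with quantile normalisation gave 0.062 for Akt1 and 0.092 for Tsc1 at day 10 against control, 0.045 for Akt1 at day 30 against control, and -0.11, 0.12 and 0.22 for Insr probe A_55_P2173927 in the 3 comparisons. Quantile normalisation alone gave 0.18 and 0.24 for Akt1 at day 30 against control and against day 10, and the percentile over detected probes gave -0.0066 for Tsc2 at day 30 against control. The deposited value table gave, at day 10 against control, 0.18 for Insr, 0.065 for Akt1, -0.036 for Akt2 and 0.30 for Tsc1. It gave, at day 30 against control, -0.19 for Tsc2, 0.30 for Mtor, -0.028 for Rictor and -0.44 for Akt2 probe A_55_P2066523, and at day 30 against day 10, 0.14 for Mtor, -0.14 for Rptor and 0.038 for Insr probe A_55_P2172566. Slide as a block gave 0.15 for Insr, -0.21 for Mtor and -0.53 for Insr probe A_55_P2173927 at day 10 against control, the same values as within slide 1. It gave 0.065 for Tsc2 at day 30 against day 10, as within slide 2, and -0.038 for Akt2 probe A_55_P2066523 at day 30 against control. Raising dim values to the lowest detected signal gave 0.12 and 0.20 for Akt1 at day 30 against control and against day 10, and -0.32 and 0.26 for Insr probe A_55_P2173927 at day 10 against control and at day 30 against day 10. The detected share as a covariate gave -0.33 for Akt2 and -0.084 for its probe A_55_P2025228 at day 10 against control. At day 30 against control it gave -0.067 for Insr, 0.22 for Akt1, -0.12 for Tsc2, -0.95 for Rictor and 1.45 for Insr probe A_55_P2173927, and at day 30 against day 10, 0.26 for Akt1, -0.070 for Rptor and 0.55 for that Insr probe. The mean of probes gave -0.74 for Insr at day 30 against control.

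Leaving out single arrays, the range at day 10 against control was -0.30 to 0.17 for Irs2, -1.0 to 0.15 for Akt1, -0.42 to 0.46 for Akt2, -1.42 to 0.39 for Tsc1, -0.20 to 0.93 for Tsc2 and -0.19 to 1.10 for Rictor. For probes it was -0.67 to 0.79 for Insr A_55_P2173927, -0.24 to 0.76 for Akt2 A_55_P2025228 and -0.41 to 0.65 for Akt2 A_66_P135179. At day 30 against control it was -0.93 to 0.20 for Akt1, -1.92 to 0.0088 for Tsc1, -0.32 to 0.91 for Tsc2, -0.81 to 1.13 for Mtor, -0.33 to 0.96 for Rictor and -1.29 to 0.35 for Insr A_55_P2173927. At day 30 against day 10 it was -0.56 to 0.62 for Akt1, -1.41 to 0.75 for Tsc1, -0.61 to 0.42 for Tsc2, -1.24 to 0.70 for Mtor, -0.45 to 0.069 for Rictor, -1.45 to 0.18 for Insr A_55_P2173927 and -0.11 to 1.21 for Akt2 A_66_P135179.

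The replicate number as a block left the count of calls at 0 in each comparison and changed no call. Day 30 against control could not be compared within a slide, and the filter for detection on all 15 arrays kept only Irs2, Akt2, Tsc2 and Rictor. The probe-level alternatives were chosen after seeing the data. Spots below background limit Insr, Irs1, Akt1, Tsc1, Akt2 probe A_66_P135179 and single arrays of Rptor and Mtor, since those values have no order.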

Other observations

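Day 10 replicate 4, day 30 replicate 5 and control replicate 3 each held 7 of the 9 tested genes above the gene's median over the 15 arrays, and control replicate 2 held 1 of 9. Of the 17 probes, between 8 and 14 were detected on an array, with the fewest on day 30 replicate 1.

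Outside the 10 genes, no gene passed an adjusted p of 0.05 by limma in any of the 3 comparisons, where the smallest adjusted p-values were 0.705 at day 10 against control, 0.367 at day 30 against control and 0.432 at day 30 against day 10. At an unadjusted p under 0.05 the counts were 673, 1337 and 1067 genes in that order. In the fit over 38438 probes, 1 probe, of Homer1, passed at day 30 against day 10, with a difference of -6.59 (adjusted p = 0.0405). It was named after its value was seen.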
